A study of Mus musculus with 6 samples.

Results

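Branched-chain amino acid and propionate catabolism was examined as 31 genes, named by symbol and matched to the Ensembl identifiers of the deposited table through GENCODE M39. All 31 were found among the 55416 genes of the table. The genes cover transamination and mitochondrial import, the branched-chain 2-oxoacid dehydrogenase (BCKDH) complex with its kinase and phosphatase, the leucine, valine and isoleucine arms, and the steps from propionyl-CoA to succinyl-CoA with their cobalamin-handling proteins. The transcription factor Klf15 completes the set.

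Leucine, valine and isoleucine are first transaminated to branched-chain 2-oxoacids, which the BCKDH complex of the mitochondrial matrix then decarboxylates irreversibly to branched acyl-CoAs. Each acyl-CoA has its own dehydrogenase, after which leucine carbon ends as acetyl-CoA and acetoacetate, valine carbon as propionyl-CoA, and isoleucine carbon as acetyl-CoA and propionyl-CoA. Propionyl-CoA is carboxylated by a biotin enzyme and rearranged by a cobalamin enzyme to succinyl-CoA, which enters the tricarboxylic acid cycle. In the gut these amino acids arrive from the diet and from the blood, and the epithelium both uses them and passes them on.

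The study asked how low-density lipoprotein acts on intestinal stem cells, and compared organoids grown from small-intestinal crypts of wild-type C57BL/6 mice. Organoids are crypt epithelium grown in a gel as self-renewing buds. Of the organoids of each of 3 mice, some were cultured with LDL at 50 µg/ml for 5 days and some with PBS, which gave 3 LDL and 3 PBS libraries, paired by mouse. The crypts came from duodenum and jejunum, both groups grew in the same commercial organoid medium, and the labels give neither the sex nor the age of the mice. The identifier of mouse 3 has another prefix than those of mice 1 and 2, although all 3 mice are labelled wild type.

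Reads assigned to genes numbered 22061545 to 31073360 per library. The LDL library of mouse 1 stood apart in that its most abundant gene took 7.62% of the reads, against 2.60% to 3.32% in the other 5 libraries, and in having the most genes with a read (35781). Summed epithelial markers were at 86029 to 89699 normalized counts in the PBS libraries and 96795 to 129069 in the LDL libraries, and summed fibroblast markers reached at most 34.2 normalized counts in any library.

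About as many genes of the pathway fell in LDL-treated organoids as did not pass the test. The number that passed varied between the steps, each of which holds few genes, and differences between steps were not tested. Of the 31 genes, 30 had a mean of at least 10 normalized counts and were tested, and 16 of these (53.3%) were downregulated at an adjusted p under 0.05 in limma with mouse as a block, where 7.45% of the 18459 genes tested were. None was upregulated at that threshold (8.27% of all genes), 14 did not pass, and at an unadjusted p under 0.05 the number lower was 21, with none higher. Past the study's 1.5-fold threshold there were 13 lower genes, or 43.3%, against 3.46% of all genes, and 0 higher, against 5.68%. The fitted change, the log2 of LDL over PBS, was negative for all 30, with a median of -0.53 and a range of -1.25 to -0.02, while the median over all genes tested was -0.02. In 16 members the highest LDL library lay below the lowest PBS library, as it did in 12.3% of all genes, and 26 members (86.7%) were lower with LDL in every mouse, as were 26.8% of all genes. The 16 genes with separate ranges are not the 16 that passed, since Mcee and Mmab passed with overlapping ranges while Mmachc and Klf15 did not pass with separate ones. In bulk RNA, fewer cells of a type and less RNA per cell cannot be told apart.

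**Figure D1:**
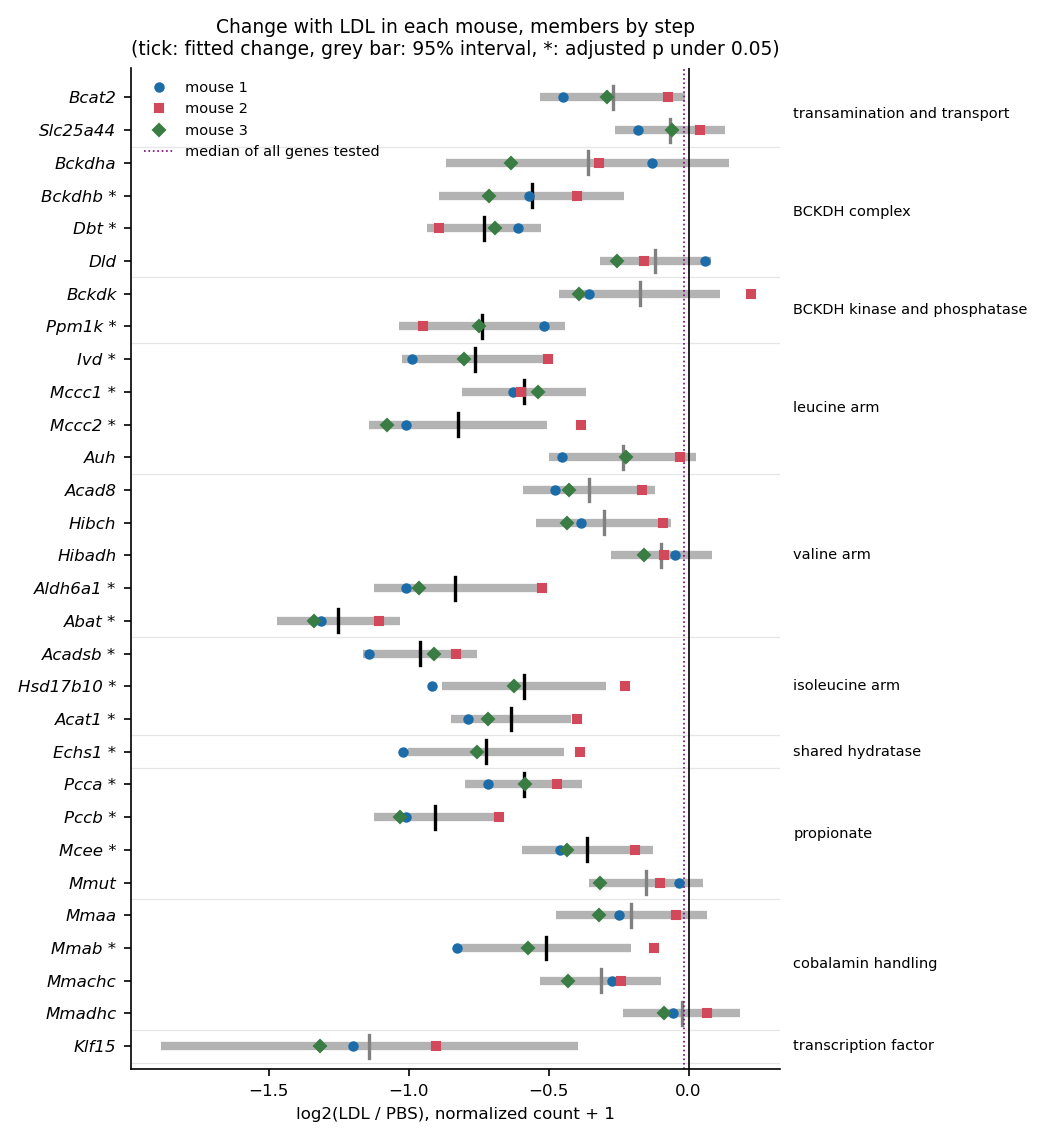
Log2 change with LDL (normalized count + 1) for the 30 genes tested, grouped by step, with a point for each of the 3 mice, a tick for the fitted change and a grey bar for its 95% interval; asterisks mark adjusted p under 0.05. The fitted changes run from -1.25 (Abat) to -0.02 (Mmadhc), and mouse 2 often lies nearest to 0.

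The falls depended on the comparison within mice and on which mice were included. Without the mouse term 5 members passed (Acadsb, Dbt, Ivd, Mccc1 and Pccb), against 0.412% of all genes. Leaving out mouse 1 left 12 lower members, leaving out mouse 2 gave 23, and leaving out mouse 3 left 3 (Abat, Acadsb and Pccb), where 3.09%, 16.6% and 0.417% of all genes were lower. The median fitted change stayed between -0.61 and -0.45 in these fits. Each fit with a mouse left out, here and below, rested on the 2 mice that remained. Such a fit has few values from which to estimate the spread of a single gene.

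Markers of secretory cell types moved too, in both directions within the goblet and the Paneth list. Summed goblet cell markers ran from 52003 to 57132 normalized counts in the PBS libraries and from 30040.3 to 36488 in the LDL libraries. Fcgbp held the largest part of these sums, at a mean of 32845 with PBS and 18281 with LDL. In the goblet list 4 of 7 were lower, all 4 past 1.5-fold, and 1, Clca1, was higher (log2 change 2.81). The median log2 change of the goblet list was -0.73, farther from 0 than the members' median of -0.53. Summed Paneth cell markers ran from 17746 to 28712 and 13709 to 16847, with 3 of 7 lower. The 2 Paneth markers that were higher were Mmp7 and Pla2g2a (log2 change 0.75 and 2.08). Summed enterocyte markers overlapped between the groups, at 36556 to 67529.5 with PBS and 50139.8 to 73225 with LDL, with 3 of 9 lower and 4 higher. Stem cell markers overlapped too, at 16112 to 31177 and 11315 to 18031, with 2 of 5 lower and 1 higher, as did enteroendocrine markers, at 9565 to 14957 and 7347 to 11556, with 2 of 7 lower. Without mouse 3 most of these calls were lost, leaving 1 lower and 1 higher goblet marker, 1 lower and 2 higher enterocyte markers, and 0 Paneth, stem cell or enteroendocrine markers in either direction. Without mouse 1 the goblet list had 5 lower and 1 higher and the Paneth list 2 lower and 2 higher, the enterocyte list 1 lower and 2 higher, the stem cell list 0 lower and 1 higher, and the enteroendocrine list 0. Without mouse 2 the enteroendocrine list had 4 lower. Without the mouse term 3 goblet markers were lower and 1 was higher, 1 enterocyte marker was higher, and 0 Paneth, stem cell or enteroendocrine markers passed. No defining marker of these 5 cell types was at 0 in any library. Summed tuft cell markers overlapped between the groups, at 239 to 337 with PBS and 186 to 493 with LDL. Of 4 tuft markers tested 1 was lower, and 0 passed without mouse 3. The part of these shifts in the lower pathway transcripts was not tested.

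At the entry of the pathway neither gene tested passed, in limma, edgeR or DESeq2, and 1 of them, Bcat2, had an unadjusted p under 0.05. Bcat2, the mitochondrial aminotransferase that takes the amino group off all 3 amino acids, was at 428, 316 and 408 normalized counts with PBS in mice 1, 2 and 3 and at 313, 300.1 and 333 with LDL. Every mouse was lower with LDL, but the PBS library of mouse 2 lay within the LDL range, and the fitted change was -0.27 (95% interval -0.53 to -0.01, adjusted p = 0.151); without mouse 2 it passed (adjusted p = 0.0207). A noncoding gene annotated on the opposite strand, 0610005C13Rik, shares 708 exonic bases with Bcat2 and was itself lower (log2 change -0.88, adjusted p = 0.00246), and whether reads were counted by strand is not given in the sources used here. Slc25a44, the carrier of branched-chain amino acids into mitochondria, was at 865, 892 and 878 with PBS and 764, 918 and 844 with LDL, with an interval of -0.26 to 0.13. Bcat1, the cytosolic aminotransferase, had 1 to 4 reads per library and was not tested.

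In the BCKDH complex Dbt and Bckdhb fell while Bckdha and Dld did not pass. Dbt (chromosome 3, 116306686 to 116343633 of GRCm39) encodes the E2 transacylase core, to which the decarboxylase and the lipoamide dehydrogenase bind. It was at 1086, 1305 and 1126 normalized counts with PBS and 711, 703 and 697 with LDL, or 1172 ± 116 against 704 ± 6.89 (SD, n = 3). The LDL libraries lay closer to each other than their PBS partners did, and all were below them, and the fitted fall was 39.7% (log2 change -0.73, SE 0.09, adjusted p = 0.00216). Without mouse 3 the adjusted p was 0.0618.

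Bckdhb, the beta subunit of the E1 decarboxylase, was at 187, 144 and 165 with PBS and 126, 109 and 100.3 with LDL. Every LDL library was below every PBS library, and the gene passed (log2 change -0.56, SE 0.14, adjusted p = 0.0355), though not in DESeq2 (0.112), nor without mouse 1 (0.144) or mouse 3 (0.310). Bckdha, the alpha subunit of the same decarboxylase, was low, at 38.8, 54.7 and 53.7 with PBS and 35.4, 43.7 and 34.3 with LDL, and its interval of -0.87 to 0.15 included both 0 and the fitted change of Bckdhb. Its exons overlap 2386 bases of B3gnt8 on the opposite strand. Dld, the lipoamide dehydrogenase that BCKDH shares with the pyruvate and 2-oxoglutarate dehydrogenases, was at 4209, 4869 and 4423 with PBS and 4381, 4361 and 3705 with LDL. It was higher in mouse 1 and lower in mice 2 and 3, with an interval of -0.32 to 0.08 (adjusted p = 0.407). Per kilobase of transcript, the ratio of Dld to Dbt was 2.88, 2.77 and 2.92 with PBS and 4.58, 4.61 and 3.95 with LDL, so the ranges did not overlap.

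Of the 2 enzymes that set the phosphorylation state of the complex, the phosphatase passed the test and the kinase did not. Ppm1k (chromosome 6, 57483475 to 57512492), the phosphatase that reactivates BCKDH, was at 250.1, 342 and 299.6 with PBS and 174, 176 and 178 with LDL, a fall of 40.0% (log2 change -0.74, SE 0.13, adjusted p = 0.00859, 0.137 without mouse 3 and 0.0589 without the mouse term). As with Dbt, the LDL libraries were closer to each other than the PBS libraries were. Bckdk (chromosome 7, 127502939 to 127510162), the kinase that inactivates BCKDH, was at 1574, 1778 and 1871 with PBS and 1231, 2074 and 1427 with LDL. It was lower with LDL in mice 1 and 3 and higher in mouse 2, and the groups overlapped (log2 change -0.17, interval -0.46 to 0.11, adjusted p = 0.399). Without mouse 2 Bckdk passed as lower, at a log2 change of -0.37 (adjusted p = 0.00155). The ratio of Bckdk to Ppm1k per kilobase was 11.2, 18.7 and 12.7 in the LDL libraries of mice 1, 2 and 3, or 1.12, 2.26 and 1.28 times the ratio in the paired PBS libraries. The difference between the changes of these genes was not tested.

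In the leucine arm 3 of 4 genes fell. Ivd (chromosome 2, 118692141 to 118714335), isovaleryl-CoA dehydrogenase and the first enzyme peculiar to leucine, was at 724, 687 and 729 with PBS and 365, 485 and 417 with LDL, a fall of 41.1% (log2 change -0.76, SE 0.11, adjusted p = 0.00459). Mccc1 and Mccc2 encode the biotin-carrying and carboxyltransferase subunits of 3-methylcrotonyl-CoA carboxylase, the next enzyme. Mccc1 (chromosome 3, 36010879 to 36054881) was at 500.2, 491 and 462 with PBS and 323, 324 and 319 with LDL, narrow ranges that lay far apart (log2 change -0.59, SE 0.09, adjusted p = 0.00642). Mccc2 (chromosome 13, 100069907 to 100152178) was at 1019.8, 1007 and 1094 with PBS and 506, 770.3 and 518 with LDL. In Mccc2 mice 1 and 3 fell to about the same level and mouse 2 fell less (log2 change -0.82, SE 0.14, adjusted p = 0.00727).

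Auh, the methylglutaconyl-CoA hydratase that follows, was at 449, 411 and 392 with PBS and 328, 403 and 336 with LDL. Its ranges overlapped through mouse 2, and the interval of -0.50 to 0.03 reached past 0 (adjusted p = 0.210, and 0.0357 without mouse 2). Without mouse 3, Ivd, Mccc1 and Mccc2 gave adjusted p-values of 0.101, 0.111 and 0.133.

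The 200 bases upstream of the annotated start are shown for the leucine enzymes, where 3 genes fell and Auh did not pass, and for the opposed regulators Ppm1k and Bckdk. They come from RefSeq on GRCm38.p6, which is not the build of the deposited counts, and read 5′ to 3′ on the gene's strand. Capitals mark the letters of the GC box (GGGCGG), of the inverted or forward CCAAT box, of the CACCC box (CCACCC here) and of the TATA box (TATAAA), each searched on both strands, and overlapping matches run together. The windows are Ivd at chr2:118861794-118861993, plus strand, Mccc1 at chr3:36000679-36000878, minus strand, Mccc2 at chr13:100015640-100015839, minus strand, Auh at chr13:52929678-52929877, minus strand, Ppm1k at chr6:57535488-57535687, minus strand, and Bckdk at chr7:127903873-127904072, plus strand.
Ivd: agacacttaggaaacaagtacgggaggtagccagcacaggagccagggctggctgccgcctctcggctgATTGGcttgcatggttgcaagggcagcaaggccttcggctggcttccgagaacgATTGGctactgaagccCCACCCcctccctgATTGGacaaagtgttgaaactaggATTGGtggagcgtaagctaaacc
Mccc1: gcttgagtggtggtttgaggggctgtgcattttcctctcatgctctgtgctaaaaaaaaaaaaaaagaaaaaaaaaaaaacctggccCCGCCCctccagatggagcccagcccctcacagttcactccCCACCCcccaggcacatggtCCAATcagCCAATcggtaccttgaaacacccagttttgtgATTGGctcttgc
Mccc2: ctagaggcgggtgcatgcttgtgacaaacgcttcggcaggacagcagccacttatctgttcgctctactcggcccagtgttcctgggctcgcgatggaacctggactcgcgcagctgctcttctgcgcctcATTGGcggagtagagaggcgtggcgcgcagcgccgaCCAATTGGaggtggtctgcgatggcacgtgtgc
Auh: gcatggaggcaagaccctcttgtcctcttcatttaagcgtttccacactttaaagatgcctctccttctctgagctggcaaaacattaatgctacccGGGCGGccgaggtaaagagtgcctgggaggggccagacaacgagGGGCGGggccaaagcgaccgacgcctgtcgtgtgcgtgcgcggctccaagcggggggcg
Ppm1k: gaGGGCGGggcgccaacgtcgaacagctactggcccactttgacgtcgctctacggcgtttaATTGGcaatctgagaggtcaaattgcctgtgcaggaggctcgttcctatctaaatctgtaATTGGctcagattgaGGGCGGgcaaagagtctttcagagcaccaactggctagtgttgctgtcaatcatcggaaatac
Bckdk: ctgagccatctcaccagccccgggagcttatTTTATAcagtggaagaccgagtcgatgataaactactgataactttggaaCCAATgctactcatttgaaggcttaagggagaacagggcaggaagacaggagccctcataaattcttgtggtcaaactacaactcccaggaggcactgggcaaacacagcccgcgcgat
The 3 leucine genes that fell each hold 3 or 4 CCAAT matches, Auh holds none of them and 2 GC boxes, and Bckdk alone among the matched members holds the TATAAA letters. Of the 31 members 25 had a RefSeq promoter, which left out Abat, Acat1, Dbt, Mmadhc, Mmut and Slc25a44. The GC box was present in 15 of the 25, where 33.7% of 27025 genes held it in the same window, and CCAAT also in 15, against 32.7%. Among matched members that fell, 9 of 13 held CCAAT and 9 a GC box, and among those that did not pass, 5 of 11 held CCAAT and 6 a GC box. CCACCC was present in 6 of the 13 and 1 of the 11, against 26.6% of all genes, TATAAA in 1 of the 25 (11.7% of all genes) and TGATGNAA, the amino acid response element, in 1 (Echs1; 3.25%). Members' promoters had a median observed-over-expected CpG of 0.697, where the median over all 32851 promoters was 0.386. The background of these shares and medians was every gene with a RefSeq promoter, whether or not it was expressed in the organoids. A comparison with expressed genes alone was not made. These matches describe letters in a window and were not tested as binding sites.

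All 3 isoleucine enzymes fell. Acadsb (chromosome 7, 131012267 to 131050673), the short/branched-chain acyl-CoA dehydrogenase that opens the arm, was at 1661, 1763 and 1719 with PBS and 753, 991 and 916 with LDL, or 1715 ± 51.4 against 886 ± 122 (SD, n = 3). LDL libraries held 45.3%, 56.2% and 53.2% of the paired PBS value in mice 1, 2 and 3 (log2 change -0.96, SE 0.09, adjusted p = 0.000644). This call held without the mouse term (adjusted p = 0.0136) and with each mouse left out in turn (0.000443, 2.85e-08 and 0.0297).

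Hsd17b10, the 3-hydroxy-2-methylbutyryl-CoA dehydrogenase that also forms part of mitochondrial RNase P, was at 1200.5, 1343 and 1236 with PBS and 635, 1149 and 802 with LDL. Mouse 2 changed least, and the call (log2 change -0.59, SE 0.13, adjusted p = 0.0195) was lost without mouse 1 (0.0605) and without mouse 3 (0.211). Acat1, the mitochondrial acetoacetyl-CoA thiolase that splits the last isoleucine intermediate and also acts in ketone body metabolism, was at 2885, 3446 and 3045 with PBS and 1672, 2613 and 1853 with LDL (log2 change -0.63, SE 0.09, adjusted p = 0.00462, 0.111 without mouse 3). Its exons share 2031 bases with Npat on the opposite strand, whose own log2 change was 0.03. Echs1, the enoyl-CoA hydratase that serves valine, isoleucine and short fatty acids, was at 1205, 1461 and 1241 with PBS and 593, 1116 and 734 with LDL. The fall of Echs1 was 39.4% (log2 change -0.72, SE 0.12, adjusted p = 0.00727, 0.127 without mouse 3).

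In the valine arm Aldh6a1, the last step, and Abat fell, while Acad8, Hibch and Hibadh did not pass. Acad8, isobutyryl-CoA dehydrogenase, was at 494, 565 and 523 with PBS and 355, 504 and 389 with LDL, and lay just outside the threshold (log2 change -0.36, adjusted p = 0.0526). Hibch, which removes CoA from 3-hydroxyisobutyryl-CoA, was at 540.0, 580.3 and 545 with PBS and 413, 545 and 403 with LDL (log2 change -0.30, adjusted p = 0.0895). Both genes were lower with LDL in every mouse, and both passed once mouse 2 was left out (adjusted p = 0.00340 and 0.00585). Hibch shares 2013 exonic bases with 1700019D03Rik on the opposite strand, which was lower (log2 change -0.90, adjusted p = 0.000779). Hibadh, the dehydrogenase that makes methylmalonate semialdehyde, was at 1101, 1030.1 and 1018 with PBS and 1066, 969 and 912 with LDL, with an interval of -0.28 to 0.08.

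Aldh6a1 (chromosome 12, 84476966 to 84497800), which turns methylmalonate semialdehyde into propionyl-CoA, was at 465, 487 and 418 with PBS and 231, 338 and 214 with LDL, a fall of 43.9% (log2 change -0.83, SE 0.13, adjusted p = 0.00503, 0.108 without mouse 3). Its exons overlap 4382 bases of Bbof1 on the opposite strand, and Bbof1 was at a mean of 76.9 normalized counts with PBS and 79.7 with LDL. Abat (chromosome 16, 8331233 to 8439996), the aminotransferase of 4-aminobutyrate that also handles the amino form of a valine intermediate, was at 749, 1106 and 594 with PBS and 301, 514 and 234 with LDL. The mice differed in level, with mouse 2 highest under both conditions, yet LDL libraries held 40.2%, 46.5% and 39.4% of their PBS partners. The fitted change of Abat was the most negative of the members, at -1.25 (SE 0.10, adjusted p = 0.000282), and it passed without any single mouse (0.000140, 1.48e-08 and 0.0186) but not without the mouse term (0.0996).

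**Figure D2:**
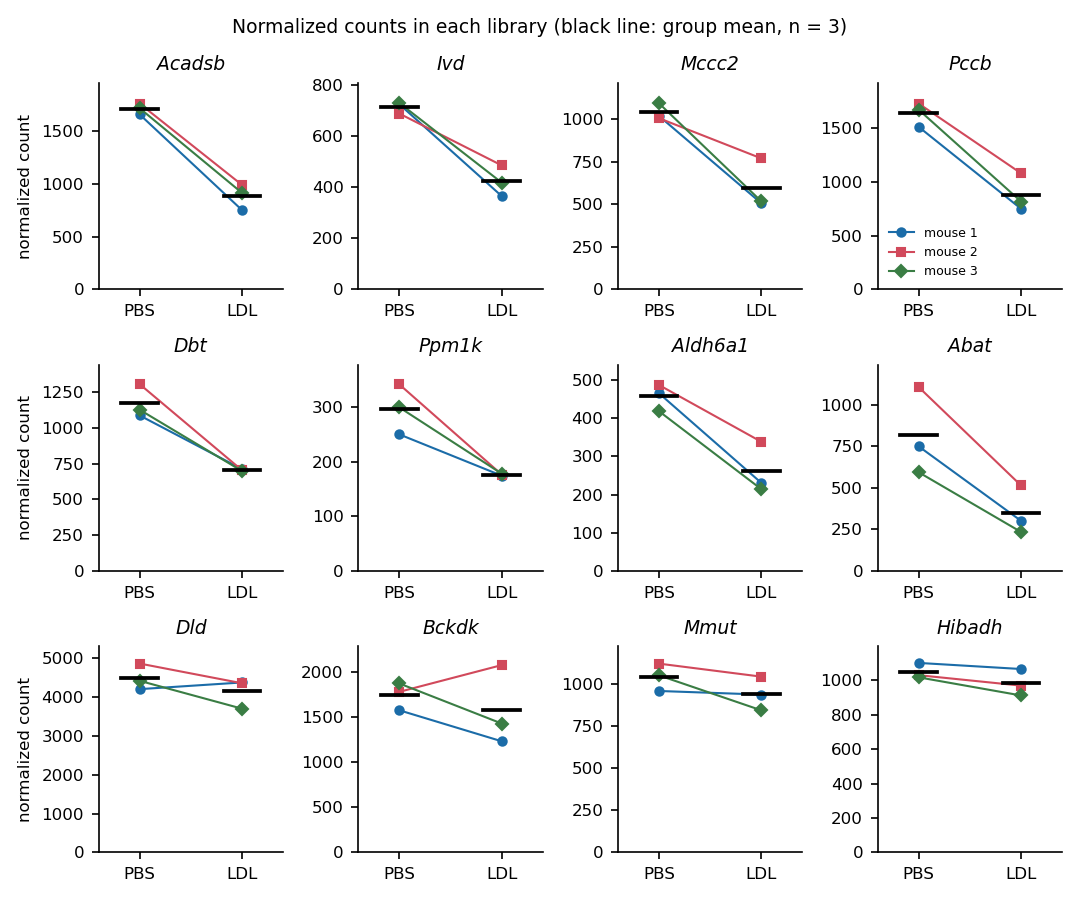
Normalized counts of 12 members in each library (y axes start at 0), with lines joining the PBS and LDL libraries of a mouse and black bars for group means (n = 3). In the upper 8 panels, from Acadsb to Abat, every LDL library lies below every PBS library; in the lower 4 (Dld, Bckdk, Mmut and Hibadh) the fitted changes did not pass the test.

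At propionate the carboxylase fell and the mutase did not pass. Pcca (chromosome 14, 122771526 to 123128534), the biotin-carrying subunit of propionyl-CoA carboxylase, was at 874, 838 and 749.8 with PBS and 532, 605 and 500.0 with LDL (log2 change -0.59, SE 0.09, adjusted p = 0.00516, 0.109 without mouse 3). Pccb (chromosome 9, 100864085 to 100916978), the other subunit, was at 1509.8, 1726 and 1669 with PBS and 749, 1079 and 816 with LDL, or 1635 ± 112 against 881 ± 174 (SD, n = 3). LDL libraries held 49.6%, 62.5% and 48.9% of the paired PBS level of Pccb (log2 change -0.91, SE 0.09, adjusted p = 0.00108), and the call held without the mouse term (0.0322) and without mouse 3 (0.0477). Per kilobase, the ratio of Pcca to Pccb was 0.477, 0.400 and 0.370 with PBS and 0.585, 0.462 and 0.505 with LDL, higher with LDL in each mouse, with overlapping ranges.

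Mcee, the epimerase that makes the form of methylmalonyl-CoA used by the mutase, was at 450.2, 594 and 461 with PBS and 327, 520.2 and 341 with LDL. It lay just inside the threshold (log2 change -0.36, SE 0.10, adjusted p = 0.0486), and missed it in edgeR (0.0540), in DESeq2 (0.144), without mouse 1 (0.212) and without mouse 3 (0.360). Mmut, methylmalonyl-CoA mutase, was at 961, 1123 and 1054 with PBS and 939, 1046 and 845 with LDL, with an interval of -0.35 to 0.05 (adjusted p = 0.297). Its ratio to Pccb per kilobase was 0.401, 0.410 and 0.398 in the PBS libraries and 0.791, 0.611 and 0.653 in the LDL libraries, ranges that did not overlap.

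Of the 4 cobalamin-handling genes 1 fell. Mmab, the adenosyltransferase that makes the mutase cofactor, was at 839, 918 and 919 with PBS and 472, 842 and 617 with LDL, where the LDL library of mouse 2 lay within the PBS range (log2 change -0.51, SE 0.13, adjusted p = 0.0378, 0.150 without mouse 1 and 0.297 without mouse 3). Mmachc, which strips the upper ligand from incoming cobalamin, was at 547, 526 and 563 with PBS and 453, 445 and 418 with LDL. Its ranges were separate but the fitted change of -0.31 did not pass (adjusted p = 0.0585, and 0.0165 without mouse 2). Mmaa, a GTPase that guards the mutase, was at 245, 257 and 288 with PBS and 206, 249 and 231 with LDL (adjusted p = 0.289). Mmadhc, which routes cobalamin between cytosol and mitochondria, had the value nearest to 0 of all members, a log2 change of -0.02 (interval -0.23 to 0.18).

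Klf15, a transcription factor known to induce branched-chain amino acid catabolism in muscle, heart and liver, was low in these organoids. Its reads numbered 15, 13 and 30 with PBS and 5, 9 and 11 with LDL, which gave 15.3, 16.2 and 24.4 and 6.10, 8.18 and 9.20 normalized counts. All LDL libraries were below all PBS libraries, and the log2 change of -1.14 had an interval of -1.89 to -0.39. It fell just short of the threshold in limma (adjusted p = 0.0505), passed in edgeR (0.0409) and did not in DESeq2 (0.314).

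Levels among members spanned a wide range. Per kilobase of the canonical transcript, Hsd17b10 was highest in the PBS libraries, at 1248 to 1396 normalized counts, followed by Dld at 937 to 1083. Acat1 (683 to 816), Pccb (651 to 744) and Mcee (542 to 715) came next with overlapping ranges. The decarboxylase subunits were near the bottom, Bckdhb at 29.0 to 37.5 and Bckdha just below it at 20.3 to 28.6. Their E2 partner Dbt was at 325 to 391. By the mean of the LDL libraries Dld was first, at 923, and Hsd17b10 second, at 896, with overlapping ranges (824 to 975 and 661 to 1194). Hsd17b10 lay above Dld in the LDL libraries of mice 2 and 3 and below it in that of mouse 1.

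The relatives of member enzymes in other pathways did not share one direction. Among 9 other acyl-CoA dehydrogenases 2 fell, 3 rose and 4 did not pass. Acadl, the long-chain enzyme of fatty acid oxidation, rose from 2155, 2519 and 2044 to 4184, 4723 and 3699 (log2 change 0.91, SE 0.07, adjusted p = 0.000353). Its ratio to Acadsb per kilobase was 3.19, 3.51 and 2.92 with PBS and 13.7, 11.7 and 9.94 with LDL, so the long-chain and the isoleucine dehydrogenase moved apart in every mouse. Acadvl (log2 change 0.53) and Acad11 (0.91), which also act on long acyl chains, rose, and Acadm, the medium-chain enzyme (-0.37), and Gcdh of lysine breakdown (-0.41) fell.

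Among 7 subunits of the sister 2-oxoacid dehydrogenase complexes, Pdha1 of pyruvate dehydrogenase fell (log2 change -0.43, adjusted p = 0.0112) and none of the others passed. The E2 subunits of the sister complexes were Dlat, with an interval of -0.39 to 0.14, and Dlst, with an interval of -0.09 to 0.25, whereas that of Dbt was -0.94 to -0.53. The ratio of Dbt to Dlst per kilobase was 0.229, 0.240 and 0.218 with PBS and 0.137, 0.125 and 0.130 with LDL, without overlap. All 4 biotin-carboxylase subunits of the pathway fell, while of 3 other biotin carboxylases Acacb, the acetyl-CoA carboxylase at the mitochondrial surface, rose from 73.5, 60.9 and 79.8 to 609.8, 966 and 629 (log2 change 3.32, SE 0.20, adjusted p = 0.000108). Acaca, its cytosolic partner (-0.14), and Pcx, pyruvate carboxylase (0.15), did not pass.

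**Figure D3:**
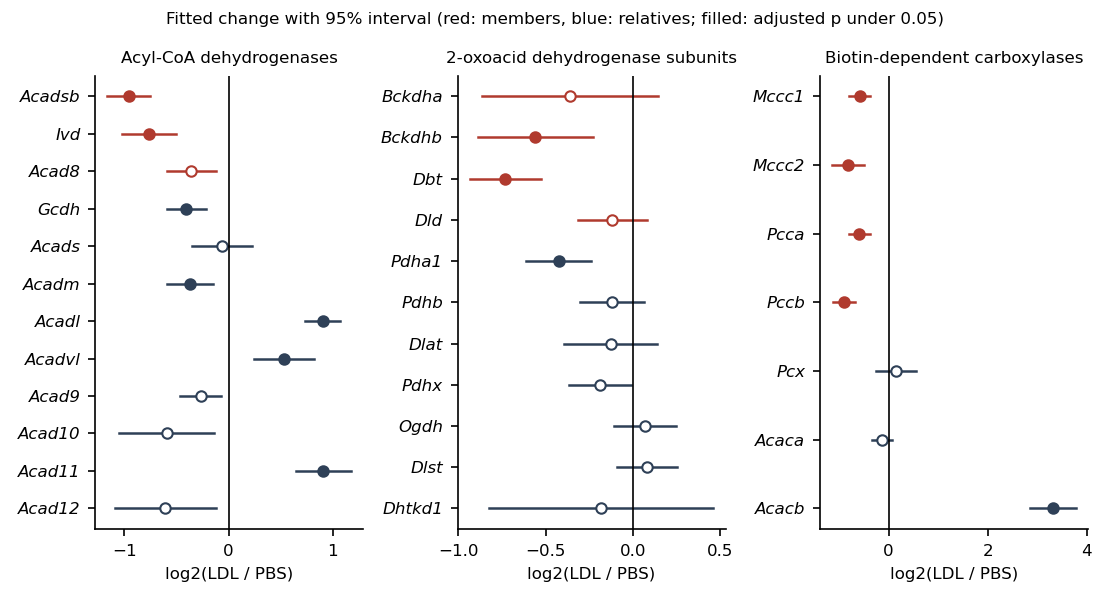
Fitted log2 change with LDL and its 95% interval for members (red) and related enzymes of other pathways (blue), in 3 panels by enzyme family; filled circles have adjusted p under 0.05 and each panel has its own x scale. Among the acyl-CoA dehydrogenases Acadsb (-0.96) lies lowest and Acadl and Acad11 (0.91 each) highest, and Acacb (3.32) lies apart from the other carboxylases.

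Genes upstream and downstream were read as lists. Of 8 branched-chain amino acid carriers tested, Slc7a8, a basolateral exchanger of large neutral amino acids, fell from 1354, 1675 and 953 to 473, 876 and 419 (log2 change -1.21, SE 0.12, adjusted p = 0.000759). Slc7a6 rose (log2 change 0.33, adjusted p = 0.0419), and Slc7a5, the main leucine exchanger of growing cells, did not pass (-0.18). The median of the carriers was -0.18.

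Where succinyl-CoA leaves, Suclg2, Sdhb and Sdhc fell among 7 genes, with log2 changes of -0.32, -0.41 and -0.43 and none past 1.5-fold. Cobalamin uptake and use gave 2 lower genes of 9, Tcn2, the blood carrier (-0.47), and Amn, part of the ileal receptor (-0.73), with 3 calls in edgeR and 4 in DESeq2. The fitted change farthest from 0 in that list was a positive one, that of Lrp2, a large endocytic receptor named here after its values were seen, which was at 9.19, 1.24 and 4.07 normalized counts with PBS and 140.3, 0.909 and 53.5 with LDL. Lrp2 was higher with LDL in mice 1 and 3 and not in mouse 2, and did not pass in limma (log2 change 2.33, adjusted p = 0.0714) but did in edgeR (0.000759) and DESeq2 (4.30e-06). Of Etfa, Etfb and Etfdh, which pass electrons from acyl-CoA dehydrogenases to the respiratory chain, and Etfbkmt, a methyltransferase that modifies the product of Etfb, 0 passed in limma and DESeq2 and 1 (Etfdh, log2 change 0.27) in edgeR, and 2 of these 4 genes had an unadjusted p under 0.05. For other amino acids, 3 of 8 genes of glycine, proline, serine and glutamate breakdown fell, namely Sdsl (-1.12), Prodh (-0.56) and Glud1 (-0.49). The fitted change farthest from 0 in that list was again a positive one, at 1.79, and did not pass in limma. In edgeR that list gave 4 calls. Lysine and tryptophan breakdown had 3 of 8 genes tested, of which 0 passed in limma, edgeR or DESeq2 or had an unadjusted p under 0.05. The 15 mitochondrial housekeeping genes had a median of -0.11, and 0 passed in any of these tests, 2 at an unadjusted p under 0.05 and 7 without mouse 2.

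The calls in these 10 lists also depended on the mice. Of 73 genes tested 17 passed, 12 lower and 5 higher. Without mouse 1 there were 6 calls, without mouse 2 there were 38 (31 lower and 7 higher), which included all 17, and without mouse 3 there were 3, namely Acadl (adjusted p = 0.0223), Acacb (0.00487) and Slc7a8 (0.0306). Without the mouse term 2 held (Acadl and Acacb).

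**Figure D4:**
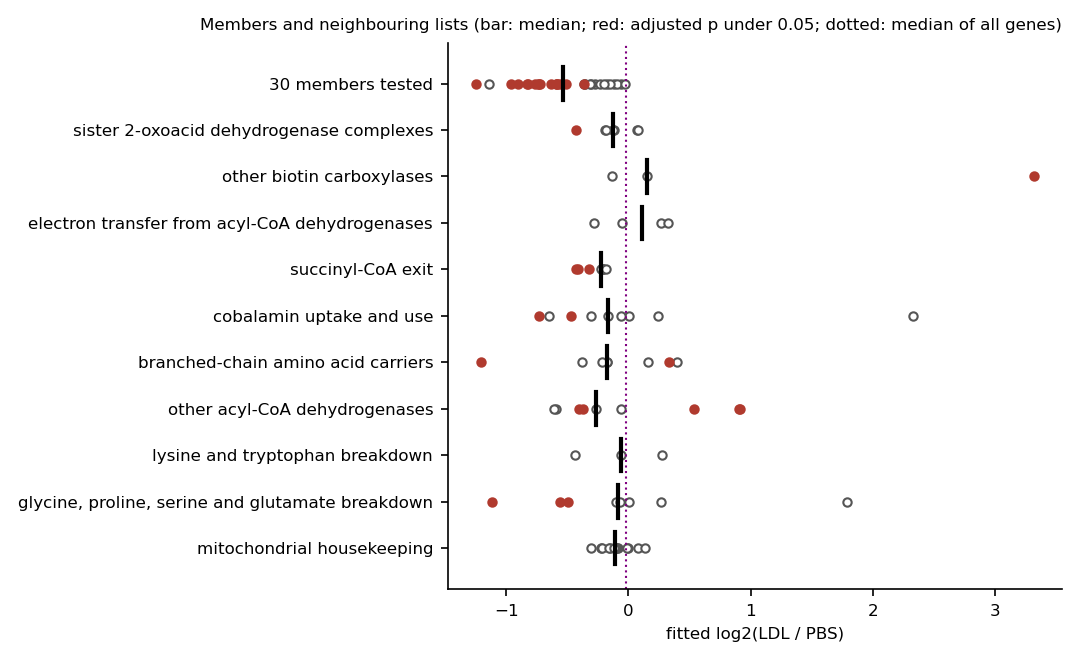
Fitted log2 change with LDL for the 30 members tested and for the genes of 10 neighbouring lists, each point a gene, filled red at adjusted p under 0.05, with black bars for list medians and a dotted line for the median of all genes tested. The members' median of -0.53 lies below that of each neighbouring list, of which the lowest is -0.27. The goblet cell markers, not drawn here, had a median of -0.73.

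The mice differed in the size of the change. The median log2 change of the members was -0.54 in mouse 1, -0.28 in mouse 2 and -0.58 in mouse 3, with 29, 27 and 30 of the 30 lower, where 53.8%, 49.7% and 51.7% of all genes were lower. Among the 26 members lower in every mouse, mouse 2 had the smallest fall in 20 (76.9%), as it did in 59.7% of the 4955 genes lower in every mouse. Dbt and Ppm1k departed from this order, with their largest falls in mouse 2. Mouse 2 also had the lowest summed stem cell markers among the PBS libraries and the highest among the LDL libraries, and the part of this in the smaller change was not tested.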

How the data were processed

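Ribosomal RNA was removed from total RNA, and stranded TruSeq libraries were read from the fragment's end on a NovaSeq instrument. Per the study's methods and the submitters' processing notes, reads were aligned to GRCm39 with STAR and counted with featureCounts. The authors deposited normalized counts, a signal per gene equal to reads divided by a factor per library, and 100% of values gave whole reads within 0.001 read; DESeq2 is the tool their notes name.

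Values were tested as log2(normalized count + 1) in limma 3.58.1 with mouse as a block, two-sided, on 18459 genes with a mean of at least 10, with Benjamini-Hochberg adjustment over all of them. This scale understates changes of low genes. The pairing comes from the labels, where both libraries of a number carry the same animal identifier, and deviations of the same mouse correlated across genes (r = 0.48, 0.42 and 0.46). Recovered reads were tested with edgeR 4.0.16 and DESeq2 1.42.0, which called 1356 and 1142 genes lower, where limma called 1375. Of 55416 identifiers 54749 were in GENCODE M39. All 31 members are named in the text. Members and lists were chosen with earlier results of these data known. Fits were tested on simulated data. Other gene lists that had been chosen, and some single genes, are not reported here.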

Additional observations from a re-analysis of the deposited data

How the results depend on the processing

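The 12 alternatives were another test, count filter, pseudocount or scaling, the fit without pairing, and each mouse left out. Without the pairing by mouse (no replicate block), 5 members were lower, all 5 past 1.5-fold, in place of 16 and 13, and 11 calls were lost. With a mouse left out, lower members numbered 3 to 23, and those past 1.5-fold 3 to 15. In the other settings lower members numbered 14 (DESeq2) to 17 (upper-quartile scaling), and none was higher in any setting. The median log2 change ran from -0.61 to -0.45. Mmadhc alone changed sign, to 0.0082 under quantile normalization and to 0.0062 without mouse 3, from a range of -0.070 to 0.0062 with a mouse left out. With 3 mice, changes of genes as low as Klf15 and Bckdha were estimated with wide intervals, and Bcat1 was too low to test.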
